A study of Mus musculus with 8 samples.

Results

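The genes described here encode the respiratory chain, which carries electrons in the inner mitochondrial membrane, and the ATP synthase. They were chosen by symbol: names that begin with Ndufa, Ndufb, Ndufc, Ndufs or Ndufv and a digit, with Uqcr, with Cox4 to Cox8 or with Atp5, the names Sdha to Sdhd, and the names Cyc1 and Cycs. This gave 92 genes of the 19805 named in the 2 count tables, 90 of them in the table of CD8 T cells and 92 in the table of type 2 innate lymphoid cells (ILC2s). RefSeq lists 6 of the 92 as pseudogenes, which were counted apart. The other 86, called subunit genes below, were 38 genes of complex I, 4 of complex II, 9 of complex III, 17 of complex IV, 17 of complex V and Cycs. Ndufa4 and its paralog Ndufa4l2 were placed in complex IV, where the Ndufa4 protein is found, and Ndufb1-ps was kept with complex I because RefSeq lists it as the coding gene Ndufb1. The subunits encoded by mitochondrial DNA were not analysed here.

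The study compared ILC2s and CD8 T cells kept in co-culture with the same cells kept on their own. Primary cells of wild-type mice, ILC2s of the lung and CD8 T cells of the spleen, shared a culture for 3 days at 5:1 (T cells are named first in the design) or were grown on their own, and were then sorted by flow cytometry and sequenced in bulk. Each of the 4 groups (CD8 T cells alone, CD8 T cells co-cultured, ILC2s alone, ILC2s co-cultured) had 2 libraries. Mouse age, the sort gates, any stimulus in the medium and the length of the culture alone are not stated in the labels, and nothing says whether the 2 libraries of a group came from separate mice or cultures, so p-values measure only the spread between these libraries.

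In oxidative phosphorylation, complex I (NADH dehydrogenase) and complex II (succinate dehydrogenase) pass electrons to ubiquinone, complex III passes them on to cytochrome c, and complex IV (cytochrome c oxidase) hands them to oxygen. Complexes I, III and IV pump protons, and complex V, the ATP synthase, lets them flow back and makes ATP. Lymphocytes are known to raise both glycolysis and mitochondrial respiration when they are activated, and complex II is also an enzyme of the tricarboxylic acid cycle.

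The libraries held 48072595 to 67076905 counted reads. The labelled cell types were checked against marker genes. Of all genes tested, 30.2% were called higher after co-culture and 30.7% lower in CD8 T cells. In ILC2s these shares were 31.8% and 34.4%. The 13 T cell markers summed to 6625 and 6777 CPM (reads of a gene per 1000000 counted reads of its library) in CD8 T cells alone and to 8466 and 8299 CPM in co-cultured CD8 T cells, and the 16 ILC2 markers rose from 4589 and 4593 CPM in the libraries labelled ILC2 alone to 11802 and 11609 CPM in co-cultured ILC2s, with 15 of 16 called higher. After co-culture 6 of these T cell genes were called higher in the CD8 libraries and 3 lower (Trbc1, Trbc2 and Cd5). Cd4 was among the higher ones, at 1.11 ± 0.143 CPM alone and 9.56 ± 0.294 CPM co-cultured (SD, n = 2). Where the Cd4 reads came from was not tested. Markers of other cells were called in both directions in the CD8 T cell libraries, and these small counts are no result about the lists. The 13 ILC2 markers tested there summed to 769 and 757 CPM alone and 1150 and 1178 CPM co-cultured, with 5 called higher and 6 lower. Among them Kit went from 43.4 ± 9.95 to 381 ± 4.41 CPM (SD, n = 2). Il5 went the other way, from 10.2 ± 0.450 to 0.675 ± 0.0147 CPM, and so did Il1rl1, from 1.43 ± 0.0347 to 0.541 ± 0.217 CPM. Il13, Il17rb and Klrg1 were not analysed here. Macrophage markers summed to 19.3 and 17.8 CPM alone and 32.6 and 30.9 CPM co-cultured, with 1 higher and 2 lower of 4 tested. The higher one was Cd68 (13.9 ± 0.0713 to 30.2 ± 1.13 CPM). Lyz2 fell from 2.96 ± 1.11 to 0.143 ± 0.0544 CPM, and Csf1r fell too. Stroma markers summed to 32.9 and 30.2 CPM alone and 24.7 and 22.3 CPM co-cultured, with 2 higher and 2 lower of 5 tested. Most of that sum was Thy1 (28.3 ± 1.57 and 20.7 ± 1.91 CPM). Adgre1, C1qa, C1qb, C1qc, Marco and Fcgr1 (macrophages) and Col1a2, Col3a1, Lox, Serpinh1, Pdgfra, Dcn and Sparc (stroma) were not analysed here in these libraries. The libraries labelled ILC2 alone also held markers of other cells. Their T cell markers summed to 2119 and 1996 CPM, against 267 and 313 CPM in co-cultured ILC2s, with 13 of 13 called lower. Their stroma markers summed to 7579 and 8244 CPM against 124 and 132 CPM, with 8 called lower and 1 called higher of 10 tested, and their macrophage markers to 181 and 179 CPM against 16.2 and 19.9 CPM, with 4 of 4 called lower. Cd8a was at 254 ± 6.19 CPM in the libraries labelled ILC2 alone and 6.42 ± 0.477 CPM in co-cultured ILC2s (SD, n = 2), and Col1a1, a collagen gene, at 1147 ± 112 and 0.476 ± 0.232 CPM. Of the lists, Col3a1 and Pdgfra (stroma) and Mrc1, C1qa, C1qb, C1qc, Marco, Fcgr1 and Itgam (macrophages) were not analysed here in the ILC2 libraries. These markers move with every comparison below, both libraries labelled ILC2 alone carry them, and their part in the results was not tested. In bulk RNA a lower level can come from fewer cells of a type or from less RNA per cell, and these cannot be told apart.

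Subunit genes were lower after co-culture in both cell types. In CD8 T cells 76 of 83 tested subunit genes fell, 1 rose and 6 were not called, with a median log2 change of -0.89 (edgeR quasi-likelihood test, adjusted p under 0.05). Of all 15948 genes tested in these cells, 30.7% fell and 30.2% rose, and their median was -0.01. In ILC2s 62 of 86 subunit genes fell, 5 rose and 19 were not called, with a median of -0.74 (3 rose without ILC2 alone replicate 2), whereas 34.4% of all 16739 genes tested fell and 31.8% rose, with a median of -0.01. The 83 genes tested in both cell types included 58 that fell in both. Log2 changes are differences of scaled levels, with trimmed-mean (TMM) scaling between libraries. In ILC2s this scaling sits 0.21 above plain library totals, so that CPM values printed for ILC2s fall by more than the log2 change beside them. With library totals as the scale, the median of all genes in ILC2s was -0.22 and that of the subunit genes -0.95.

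The share of a library given to these genes shrank. In CD8 T cells the subunit genes summed to 15235 and 14734 CPM alone and to 10177 and 9818 CPM co-cultured, 0.667 of the level alone. In ILC2s they summed to 8155 and 8830 CPM alone and to 4447 and 5170 CPM co-cultured, 0.566 of the level alone. In both cell types each co-cultured library lay below each library labelled alone.

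**Figure D1:**
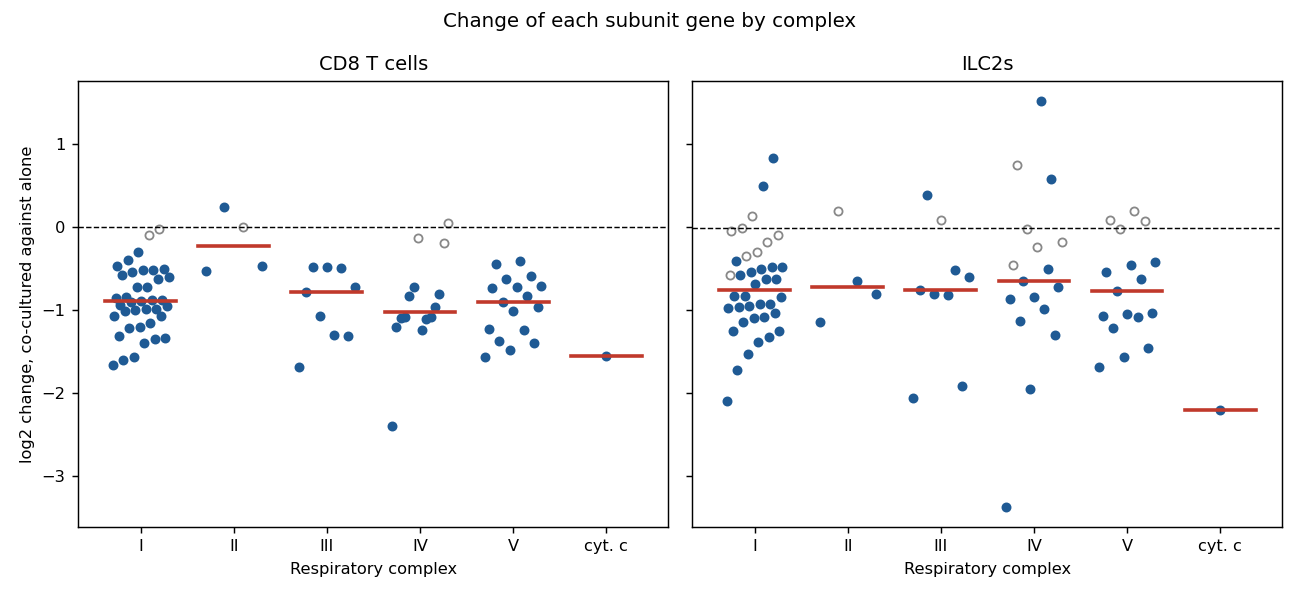
Log2 change of each subunit gene, co-cultured against alone (vertical axis), by complex, in CD8 T cells (left, 83 genes) and ILC2s (right, 86 genes). Filled points passed the edgeR test, open points did not, red bars are medians of the complex, and the dashed line is the median of all genes tested. Most filled points lie below the line, Sdha is the 1 filled point above it in CD8 T cells, and 5 genes are filled above it in ILC2s.

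The complexes did not move by the same amount in CD8 T cells. Complex IV had a median log2 change of -1.02 with 11 of 14 tested genes lower, complex V -0.90 with 17 of 17 lower, complex I -0.90 with 36 of 38 lower and complex III -0.78 with 9 of 9 lower. Complex II had a median of -0.23, with 2 of 4 genes lower and 1 higher. Summed over its genes, complex II was at 1089 and 1069 CPM alone and at 1049 and 1027 CPM co-cultured, 0.962 of the level alone, while complex IV went from 1416 and 1348 CPM to 791 and 725 CPM, 0.548 of the level alone. Complexes I, III and V were at 0.684, 0.682 and 0.645 of their level alone. Complex II therefore made up 7.15% and 7.25% of the subunit genes' CPM alone and 10.3% and 10.5% co-cultured, and complex IV 9.29% and 9.15% alone and 7.77% and 7.38% co-cultured. The groups did not overlap for any complex or for Cycs, so this sets none of them apart. Complex I was at 19.99% and 20.05% alone and 20.76% and 20.29% co-cultured. Complex III was at 12.72% and 12.54% alone and 12.99% and 12.82% co-cultured, and complex V at 49.32% and 49.62% and then 47.39% and 48.27%. No test of the difference between complexes was made, since genes of a complex are not replicates.

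In ILC2s the medians of the 5 complexes lay closer together. They were -0.76 for complex I (28 of 38 lower, 2 higher), -0.73 for complex II (3 of 4 lower), -0.76 for complex III (7 of 9 lower, 1 higher), -0.65 for complex IV (10 of 17 lower, 2 higher) and -0.77 for complex V (13 of 17 lower). Summed levels co-cultured were 0.580, 0.694, 0.621, 0.642 and 0.524 of those alone for complexes I to V. The share of complex II was 8.78% and 8.12% alone and 10.9% and 9.84% co-cultured, again with no overlap. That of complex IV was 9.58% and 9.34% alone and 10.1% and 11.3% co-cultured, a rise where CD8 T cells had a fall. The shares of complexes III and V and of Cycs did not overlap either, while those of complex I did.

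**Figure D2:**
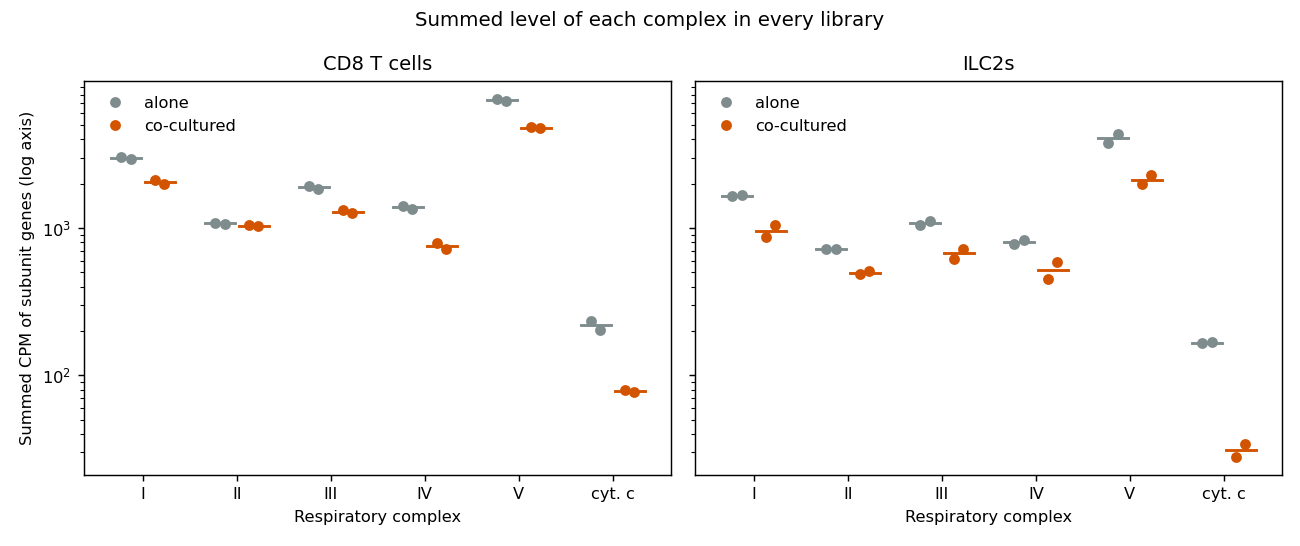
Summed CPM of the subunit genes of each complex (vertical axis, logarithmic), in CD8 T cells (left) and ILC2s (right). Points are the 2 libraries of a group and bars their means. In CD8 T cells complex II stays near 1079 CPM alone and 1038 CPM co-cultured, while cytochrome c falls from a mean of 218 to 78.3 CPM, and in ILC2s from 167 to 31.1 CPM.

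Within complex I, the 7 core subunits, which carry the flavin, the iron-sulfur clusters and the electron path, moved less in CD8 T cells than the other 31 genes. Their median log2 change was -0.52, against -0.99 for the others, and in ILC2s -0.51 against -0.83. Ndufv1, which binds NADH, was at 227 and 224 CPM in CD8 T cells alone and 156 and 159 CPM co-cultured, and fell by 0.60 (SE 0.07) on the log2 scale. Ndufs1, the largest iron-sulfur subunit, was at 146 and 135 CPM alone and 151 and 141 CPM co-cultured, overlapping groups with a log2 change of -0.02 (SE 0.07), but in ILC2s it went from 126 and 123 to 76.8 and 73.7 CPM and fell by 0.51 (SE 0.12). Ndufv2, with log2 changes of -0.72 in CD8 T cells and -0.68 in ILC2s, and Ndufs8, with -0.88 and -1.32, were called lower in both cell types. Ndufs3 and Ndufs7 fell in CD8 T cells (-0.39 and -0.52) and were at 0.13 and -0.30 in ILC2s, not called. Ndufs7 was called lower in ILC2s in 4 of 13 alternatives: library totals, a minimum of 1 CPM, the fit without ILC2 co-cultured replicate 2 and the fit of all 8 libraries (lowest edgeR adjusted p 0.0021). The complex I gene with the highest mean level in CD8 T cells was Ndufa9, at 289 and 286 CPM alone and 195 and 200 CPM co-cultured.

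The accessory subunits, which surround the core and have no redox centre, held the larger falls of complex I. Ndufa12 went from 64.3 and 60.2 CPM to 22.5 and 19.0 CPM in CD8 T cells and fell by 1.66 (SE 0.10) on the log2 scale. Ndufa5 (-1.61), Ndufb1-ps (-1.57) and Ndufs6 (-1.40) fell in the same cells. In none of these 4 genes did the groups overlap. In ILC2s Ndufc1 went from 14.0 and 18.5 CPM to 2.62 and 3.93 CPM and fell by 2.1 (SE 0.22), and Ndufb6 (-1.72) and Ndufa5 (-1.53) fell as well. Ndufv3 was the accessory gene not called in CD8 T cells, at 186 and 205 CPM alone and 192 and 195 CPM co-cultured. In ILC2s Ndufv3 was at 64.1 and 51.2 CPM alone and 66.3 and 74.4 CPM co-cultured, a rise of 0.50 on the log2 scale that was lost with library totals (edgeR adjusted p 0.079) and without ILC2 alone replicate 2 (edgeR adjusted p 0.090).

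Complex II held the only subunit gene that rose in CD8 T cells. Sdha, the flavoprotein that oxidises succinate (chr13:74322255-74350240, GRCm38.p6), was at 386 and 402 CPM alone and 492 and 496 CPM co-cultured. Both co-cultured libraries lay above both libraries alone, and the log2 change was 0.25 (SE 0.07, edgeR adjusted p 0.0071). In ILC2s Sdha was at 301 and 306 CPM alone and 310 and 288 CPM co-cultured, with overlapping groups and no call. Sdhb, the iron-sulfur subunit, fell in both, from 288 and 273 to 218 and 192 CPM in CD8 T cells (log2 change -0.54) and from 175 and 143 to 55.9 and 68.2 CPM in ILC2s (-1.14). Sdhd, a membrane anchor, fell in both as well (-0.47 and -0.65). The other anchor, Sdhc, was at 102 and 98.7 CPM alone and 102 and 111 CPM co-cultured in CD8 T cells, a log2 change of 0.01 with overlapping groups. In ILC2s Sdhc went from 63.3 and 73.7 to 28.6 and 39.5 CPM and fell by 0.80.

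In complex III every tested gene fell in CD8 T cells. The core proteins Uqcrc1 and Uqcrc2, the Rieske iron-sulfur protein Uqcrfs1 and cytochrome c1 (Cyc1) had log2 changes of -0.49, -0.48, -0.48 and -0.78. Uqcrc1, the most abundant gene of the complex by CPM, went from 629 and 636 to 496 and 456 CPM. The small subunit Uqcrq fell furthest, from 94.8 and 90.5 to 33.8 and 27.1 CPM, a log2 change of -1.69 (SE 0.10). In ILC2s Uqcrq went from 38.1 and 38.3 to 7.43 and 10.03 CPM (-1.92) and Uqcr11, another small subunit, from 14.7 and 15.7 to 2.60 and 3.72 CPM (-2.06). Both left no overlap between groups. Uqcrc1, Uqcrfs1 and Cyc1 also fell in ILC2s (-0.52, -0.60 and -0.82), where Uqcrc1 went from 351 and 371 to 207 and 227 CPM, while Uqcrc2 was at 181 and 188 CPM alone and 160 and 178 CPM co-cultured and was not called.

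Cytochrome c (Cycs, chr6:50562563-50566569) is the soluble carrier between complexes III and IV, and a trigger of apoptosis once released. It was at 232 and 204 CPM in CD8 T cells alone and 79.7 and 76.9 CPM co-cultured, and at 165 and 169 CPM in ILC2s alone and 28.0 and 34.3 CPM co-cultured. The groups were far apart in both. The log2 change was -1.56 (SE 0.08, edgeR adjusted p 7.8e-09) in CD8 T cells and -2.21 (SE 0.13, edgeR adjusted p 5.2e-08) in ILC2s. The fall was larger in ILC2s by 0.81 on the log2 scale (edgeR interaction across the 8 libraries, adjusted p 0.00021). That fit scales the 8 libraries together, so its value is not the exact difference of the log2 changes above.

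Complex IV held the largest fall in each cell type. Ndufa4 (chr6:11900372-11907450) was at 81.7 and 76.5 CPM in CD8 T cells alone and 16.4 and 15.3 CPM co-cultured, and its log2 change was -2.40 (edgeR adjusted p 5.3e-10, SE 0.09). In ILC2s it went from 21.9 and 26.9 to 4.85 and 6.07 CPM, a log2 change of -1.95. Its paralog Ndufa4l2 (chr10:127509274-127517154), known as a target of hypoxia-inducible factor, had 3 to 5 reads in each CD8 T cell library, too few to be tested there. In ILC2s Ndufa4l2 went from 29.5 and 25.6 CPM to 1.67 and 2.93 CPM and so changed by -3.37 on the log2 scale (edgeR adjusted p 1.2e-07, SE 0.22). It overlaps Shmt2 on the opposite strand, and reads from the pair cannot be told apart without strand. Of 10 stroma markers tested in the ILC2 libraries, 8 were lower after co-culture and 1 higher. Among them Acta2 was at 157 ± 17.4 CPM alone and 0.176 ± 0.133 CPM co-cultured (SD, n = 2). The part of other cells in the fall of Ndufa4l2 was not tested.

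The other isoforms of complex IV subunits did not move together. Cox4i1, the most abundant gene of the complex by CPM, fell in CD8 T cells from 244 and 239 to 150 and 137 CPM (log2 change -0.83), and was not called in ILC2s at 149 and 135 CPM alone and 109 and 132 CPM co-cultured. Its isoform Cox4i2, tested in ILC2s only, had 40 and 39 reads alone and 9 and 14 reads co-cultured and fell by 1.30 on the log2 scale (edgeR adjusted p 0.030). This call was lost in 4 of 11 alternatives: DESeq2 and the fits without ILC2 alone replicate 1, ILC2 alone replicate 2 or ILC2 co-cultured replicate 1, with an adjusted p of up to 0.19. Cox6b1 fell in both cell types (-0.96 and -0.65). Cox6b2, its isoform known from testis, was at 5.43 and 6.27 CPM alone and 5.74 and 5.08 CPM co-cultured in CD8 T cells, with overlapping groups. In ILC2s Cox6b2 (chr7:4751792-4753094) went from 2.86 and 2.87 CPM to 5.76 and 8.47 CPM and rose by 1.52 (SE 0.22, edgeR adjusted p 7.8e-05). Cox7a2 fell in both (-0.80 and -0.87), whereas Cox7a2l, a factor of supercomplex assembly, was at 78.3 and 80.3 CPM alone and 86.3 and 87.7 CPM co-cultured in CD8 T cells without a call, and rose in ILC2s from 63.7 and 65.1 to 75.0 and 90.6 CPM (0.57). The muscle isoforms were scarce. Cox7a1 had 56 to 103 reads in the CD8 T cell libraries and 10 to 15 in the ILC2 libraries, and Cox6a2 had 6 to 14 reads in the ILC2 libraries, neither with a call. Cox6a1 and Cox8a, the common forms of their subunits, fell in CD8 T cells (-1.09 and -0.72), and in ILC2s Cox6a1 fell (-0.51) while Cox8a was not called (-0.18), except in the fit of all 8 libraries, where it was lower.

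Complex V gave the highest levels. Per kilobase of transcript, which allows genes to be compared, Atp5b, the catalytic beta subunit, led with 1672 ± 11.5 CPM per kb in CD8 T cells alone and 901 ± 118 in ILC2s alone (SD, n = 2). The next were Atp5a1, the alpha subunit, with 728 ± 0.618 and 402 ± 52.5 CPM per kb, Atp5g3, a subunit c gene, with 388 ± 26.7 and 221 ± 10.4, and Uqcrc1 with 383 ± 3.05 and 218 ± 8.70. Atp5a1 lay above Atp5g3 by more than the spread between libraries, while Atp5g3 and Uqcrc1 did not differ beyond it in either cell type. Atp5b (chr10:128083307-128090388) went from 3220 and 3189 to 1927 and 1875 CPM in CD8 T cells (log2 change -0.83, SE 0.07) and from 1566 and 1887 to 670 and 751 CPM in ILC2s (-1.07, SE 0.12). Atp5a1 went from 1800 and 1798 to 1440 and 1433 CPM (-0.41) and from 901 and 1085 to 566 and 609 CPM (-0.55). For both genes the groups stayed apart. The 5 genes of F1, the part that makes ATP, had a median of -0.59 in CD8 T cells against -1.12 for the other 12. In ILC2s the medians were -0.02 and -1.04, and the gamma, delta and epsilon genes Atp5c1, Atp5d and Atp5e were not called. Among the other genes the larger falls in CD8 T cells were Atp5g1 (-1.57), Atp5md (-1.48) and Atp5l (-1.40), and in ILC2s Atp5g1 (-1.69) and Atp5g3 (-1.56).

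Subunit c, which forms the rotating ring, is encoded by 3 genes whose mature proteins are identical, and the mix of their transcripts changed. Atp5g2 made up 16.8% and 16.8% of the reads of the 3 genes in CD8 T cells alone and 26.0% and 23.6% co-cultured, and 14.6% and 15.2% in ILC2s alone and 36.1% and 35.9% co-cultured. No library of one condition overlapped the other. The share of Atp5g1 went the other way, from 24.5% and 24.4% to 18.9% and 18.6% in CD8 T cells. In ILC2s it went from 21.8% in both libraries to 15.0% and 15.6%. So did that of Atp5g3, from 58.71% and 58.79% to 55.08% and 57.79% in CD8 T cells. In ILC2s the Atp5g3 share fell by more, from 63.67% and 62.95% to 48.96% and 48.45%. Atp5g2 itself fell in CD8 T cells, from 83.8 and 75.8 to 55.7 and 53.8 CPM, and was not called in ILC2s, at 35.2 and 39.7 CPM alone and 30.8 and 37.9 CPM co-cultured. Atp5g3 fell in both, from 293 and 266 to 118 and 132 CPM and from 154 and 164 to 41.8 and 51.1 CPM. The longest run of identical bases between transcripts of any pair of the 3 was 21.

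**Figure D3:**
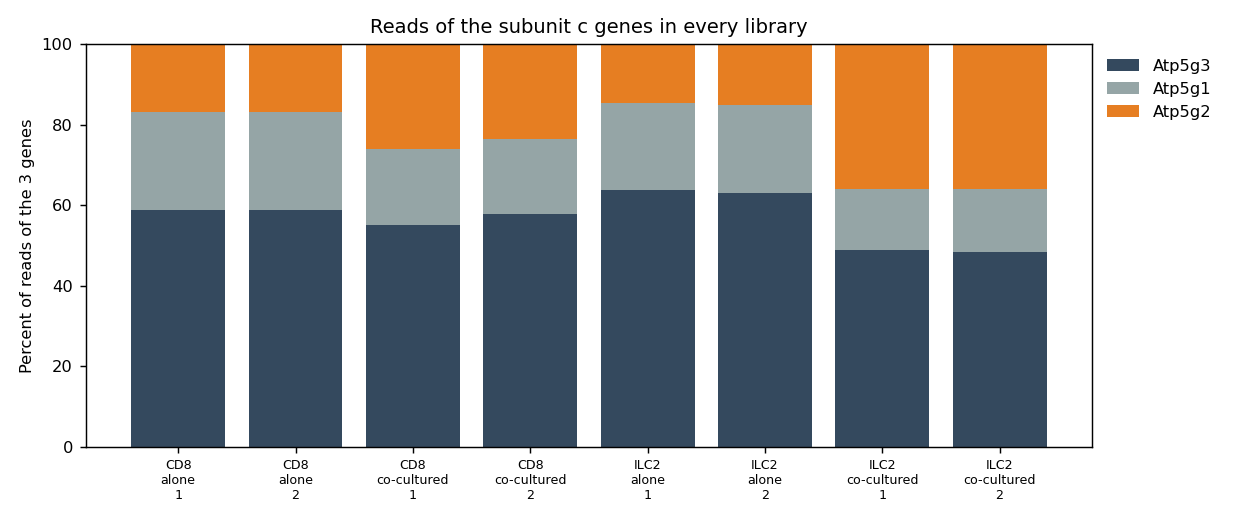
Reads of Atp5g1, Atp5g2 and Atp5g3 as percent of their sum (vertical axis), in each of the 8 libraries. The part of Atp5g2 is 16.8% in both CD8 T cell libraries alone and 26.0% and 23.6% co-cultured, and it reaches 36.1% and 35.9% in co-cultured ILC2s.

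The changes in the 2 cell types were compared gene by gene. The interaction was coded as the log2 change in ILC2s minus that in CD8 T cells, in a joint fit of all 8 libraries with its own TMM scaling. Its values are therefore not the exact differences of the changes printed from the separate fits. It was tested for 84 subunit genes, of which 16 were higher, 15 lower and 53 not called, with a median of 0.07. Over all 15532 genes 21.0% were called higher and 32.6% lower, with a median of -0.12, so the subunit genes' counts stand near or below the background shares and are no result about these genes as a group. This split rests on the scale: with library totals 7 were higher and 27 lower, and the median of all genes was -0.29. With DESeq2's size factors 20 were higher and 11 lower (median of all genes 0.001), and with upper quartile factors 21 and 10 (median of all genes 0.04). Leaving out 1 library gave 7 (without CD8 co-cultured replicate 2) to 23 higher, and 11 to 24 lower (24 without ILC2 co-cultured replicate 2). Genes that kept their interaction call in every alternative tried numbered 14: Atp5c1, Cox4i1, Cox6b2, Cox7c, Cycs, Ndufa10, Ndufa6, Ndufa9, Ndufc1, Ndufs1, Ndufs8, Sdhb, Sdhc and Uqcrh. The smallest p belonged to Ndufa6.

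Ndufa6 and Uqcrh were called in opposite directions. Ndufa6 (chr15:82350139-82354291), an accessory subunit of complex I, went from 40.7 and 40.6 to 31.1 and 28.0 CPM in CD8 T cells and fell by 0.54 (SE 0.09). In ILC2s it went from 22.3 and 22.9 to 30.9 and 38.5 CPM and rose by 0.83 (SE 0.14). The groups did not overlap in either, and the interaction was 1.21 on the log2 scale (edgeR adjusted p 1.4e-05). Uqcrh (chr4:116066965-116075070), the hinge protein of complex III, went from 64.1 and 60.9 to 41.7 and 38.1 CPM in CD8 T cells (log2 change -0.73). In ILC2s it was at 36.8 and 34.9 CPM alone and 34.1 and 47.0 CPM co-cultured, overlapping groups with a log2 change of 0.39 (edgeR adjusted p 0.036). That rise was lost in 6 alternatives, among them library totals (0.18, edgeR adjusted p 0.32) and the fits without ILC2 alone replicate 1, ILC2 alone replicate 2 or ILC2 co-cultured replicate 2 (edgeR adjusted p 0.060, 0.12 and 0.28). The interaction of Uqcrh was 0.96.

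**Figure D4:**
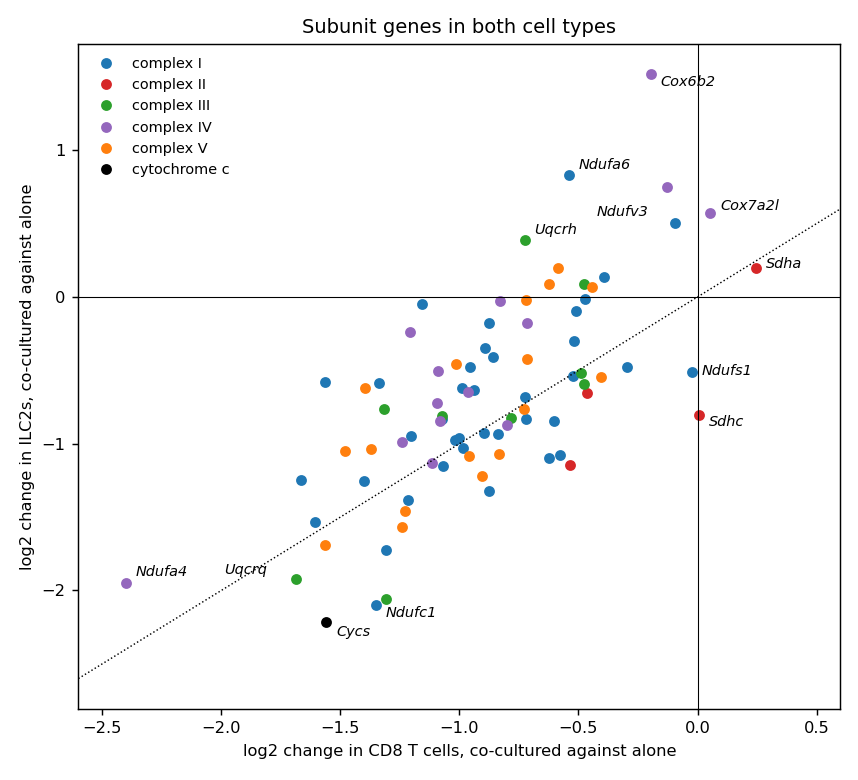
Log2 change of each subunit gene tested in both cell types (83 genes), in CD8 T cells (horizontal axis) and in ILC2s (vertical axis), coloured by complex. The dotted line marks equal change. Ndufa4 lies furthest left at -2.40, Cycs lies lowest at -2.21 in ILC2s, and Ndufa6 and Uqcrh lie in the upper left of the plot.

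The letters just before the start of transcription are shown for 4 genes on which these results turn: Cycs and Ndufa4, which fell in both cell types, and Ndufa6 and Uqcrh, which moved apart. Each line gives the 250 bases before the RefSeq start, 5′ to 3′ on the strand of the gene (the minus strand in all 4, GRCm38.p6). The windows lie at chr6:50566570-50566819, chr6:11907451-11907700, chr15:82354292-82354541 and chr4:116075071-116075320. Capitals mark matches, on either strand, to the core GCATGCGC of the motif of NRF1, a known activator of respiratory chain genes, to the ETS motif CCGGAAG bound by GABP, to AAGATGGC (YY1) or to CCAAT.
Cycs: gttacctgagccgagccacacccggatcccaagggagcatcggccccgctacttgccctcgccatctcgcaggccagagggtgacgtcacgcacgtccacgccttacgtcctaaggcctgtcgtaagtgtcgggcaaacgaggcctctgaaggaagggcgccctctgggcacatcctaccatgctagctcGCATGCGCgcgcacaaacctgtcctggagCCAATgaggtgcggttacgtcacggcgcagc
Ndufa4: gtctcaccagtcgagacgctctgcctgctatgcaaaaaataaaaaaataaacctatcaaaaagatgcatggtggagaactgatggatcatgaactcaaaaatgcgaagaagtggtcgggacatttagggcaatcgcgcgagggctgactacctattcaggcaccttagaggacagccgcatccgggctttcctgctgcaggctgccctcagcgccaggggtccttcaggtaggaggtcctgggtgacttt
Ndufa6: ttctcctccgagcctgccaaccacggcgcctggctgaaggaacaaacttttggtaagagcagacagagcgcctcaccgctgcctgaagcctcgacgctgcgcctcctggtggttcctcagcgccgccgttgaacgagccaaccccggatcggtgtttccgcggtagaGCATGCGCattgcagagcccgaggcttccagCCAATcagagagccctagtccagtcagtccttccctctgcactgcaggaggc
Uqcrh: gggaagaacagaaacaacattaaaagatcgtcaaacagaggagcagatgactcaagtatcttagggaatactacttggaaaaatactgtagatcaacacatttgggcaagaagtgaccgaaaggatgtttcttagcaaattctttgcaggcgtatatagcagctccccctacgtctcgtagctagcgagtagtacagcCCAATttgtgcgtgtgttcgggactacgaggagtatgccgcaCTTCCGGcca

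Cycs and Ndufa6 both hold the NRF1 core, 60 and 83 bases before the start, each followed by a CCAAT, 31 and 52 bases before it. Uqcrh holds the ETS motif 10 bases and a CCAAT 52 bases before the start. Ndufa4 holds none of the 4 in this window. RefSeq windows of 250 bases before to 50 bases after the start were at hand for 69 of the 86 subunit genes. The NRF1 core was in 11 of them (15.9%, against 3.05% of the windows of all 27025 genes), the ETS motif in 17 (24.6% against 9.93%), the YY1 motif in 10 (14.5% against 3.19%) and CCAAT in 30 (43.5% against 41.1%). The 32 subunit genes with any of the first 3 motifs had median log2 changes of -0.86 in CD8 T cells and -0.65 in ILC2s, and the 37 with none had -0.90 and -0.76.

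Transcript length moved with the change in CD8 T cells. Subunit transcripts are short, and in CD8 T cells the 42 under 800 bases had a median log2 change of -0.99, the 22 of 800 to 1500 bases -0.80 and the 18 over 1500 bases -0.55. All genes tested showed the same order, with medians of -0.56, -0.41 and 0.14, and subunit genes lay below all genes in each class. Across genes, which are not independent replicates, Pearson's r of log2 change with log2 length was 0.38 for 82 subunit genes and 0.25 for 14623 genes. In ILC2s the subunit medians were -0.82, -0.65 and -0.72 and those of all genes -0.06, -0.29 and -0.03, with r of -0.05 and 0.04. The complexes differ in length too. Complex II transcripts have 2900 (Sdha), 3171 (Sdhc), 1231 (Sdhd) and 1142 bases (Sdhb), and the longest of complex IV has 1076 (Cox7a2l). The part of length in the CD8 T cell result, and in the differences between complexes there, was not tested further.

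**Figure D5:**
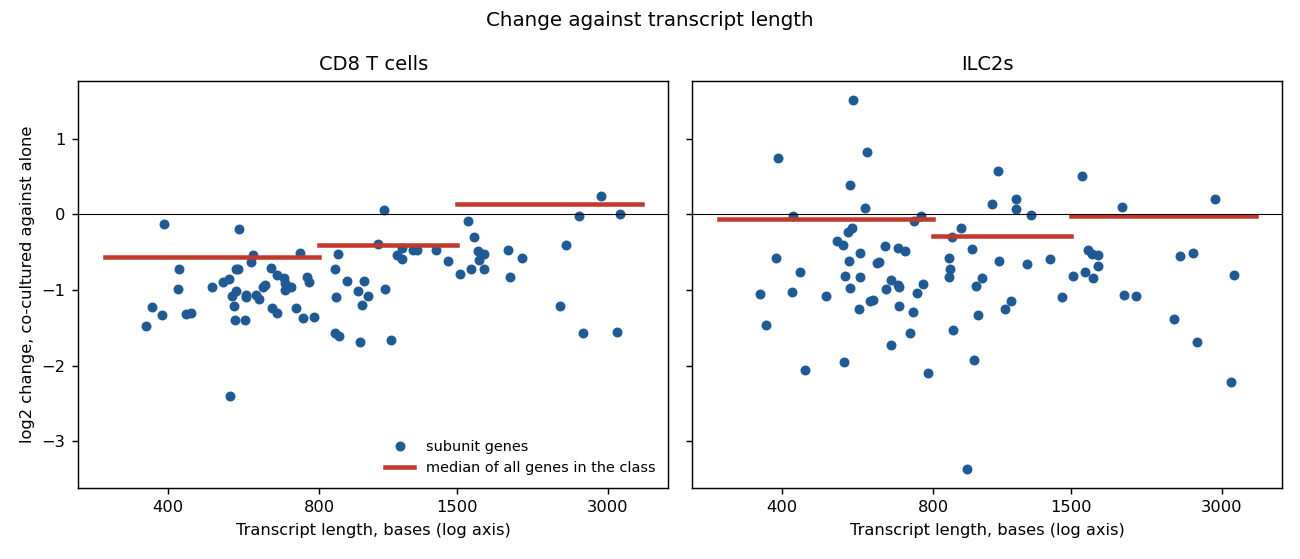
Log2 change of each subunit gene (points) against transcript length (horizontal axis, logarithmic), in CD8 T cells (left) and ILC2s (right). Red bars are the medians of all genes tested in the 3 length classes, -0.56, -0.41 and 0.14 in CD8 T cells, and most points lie below the bar of their class.

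Genes that work with the complexes were counted from lists, to be read against the shares of all genes tested: 30.7% lower and 30.2% higher in CD8 T cells, and 34.4% lower and 31.8% higher in ILC2s. Of 47 tested assembly factors, which build the complexes, 37 fell and 2 rose in CD8 T cells (median -0.56), and 24 fell and 4 rose in ILC2s (median -0.48). Ndufaf4, an assembly factor of complex I, fell in CD8 T cells (log2 change -1.67) and in ILC2s (-2.56), as did Coa7, a factor of complex IV (-1.18 and -2.36). Cox10, which takes part in making the heme of complex IV, rose by 1.50 in ILC2s but was called lower in CD8 T cells (-0.72). Mitochondrial ribosomal proteins, which translate the subunits of mitochondrial DNA, fell for 76 of 78 genes in CD8 T cells (median -0.83) and for 59 of 78 with 1 higher in ILC2s (median -0.85). Cytosolic ribosomal proteins fell for 87 of 100 genes with 6 higher in CD8 T cells (median -0.68), but in ILC2s 45 of 98 rose and 12 fell (median 0.31). The rRNA genes mt-Rnr1 and mt-Rnr2 both rose in ILC2s (1.09 and 0.89), and in CD8 T cells mt-Rnr2 fell by 0.32 while mt-Rnr1 was not called (0.16).

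Of 18 genes of the tricarboxylic acid cycle and its entry, 11 fell and 3 rose in CD8 T cells (median -0.28) and 12 fell and 1 rose in ILC2s (median -0.50), against 30.7% lower and 30.2% higher of all genes in CD8 T cells and 34.4% and 31.8% in ILC2s. Idh3a, a subunit of isocitrate dehydrogenase, fell in both (-0.74 and -2.22), and Ogdh, of oxoglutarate dehydrogenase, rose by 0.65 in CD8 T cells. Of 12 carriers and porins, 10 fell in CD8 T cells (median -0.64), and 9 fell and 2 rose in ILC2s (median -0.58). Slc25a5, an ADP/ATP carrier, went from 1117 ± 56.4 to 596 ± 19.5 CPM in CD8 T cells and from 590 ± 49.3 to 112 ± 6.03 CPM in ILC2s (SD, n = 2). Of 14 genes for the ATPase inhibitor and for coenzyme Q synthesis, 9 fell and 2 rose in CD8 T cells and 10 fell and 2 rose in ILC2s (medians -0.62 and -0.63). Coq7 (-1.32 and -3.15) and Atpif1, the ATPase inhibitor (-1.10 and -1.21), fell in both cell types, and Coq8a rose in both (1.20 and 2.35).

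Of 16 regulators of mitochondrial gene expression, 5 rose and 4 fell in CD8 T cells and 6 rose and 4 fell in ILC2s, with medians of 0.07 and 0.06. Of all genes tested 30.2% rose and 30.7% fell in CD8 T cells, and 31.8% and 34.4% in ILC2s, so these counts stand near the background and are no result about the list. Hif1a, the hypoxia-inducible factor gene, went from 354 ± 39.1 to 1061 ± 27.7 CPM in CD8 T cells and rose by 1.50 on the log2 scale. Polg, the mitochondrial DNA polymerase, rose by 1.17 there. In ILC2s both were called higher as well, Polg by 0.84 and Hif1a by 0.41 (1073 ± 60.7 and 1224 ± 211 CPM). Myc went from 362 ± 8.17 to 92.1 ± 2.83 CPM in ILC2s and fell by 1.76, and in CD8 T cells it was not called at 672 ± 90.5 and 812 ± 32.1 CPM (SD, n = 2). In ILC2s Nrf1 rose by 0.80 and Yy1 by 1.26, while neither was called in CD8 T cells (-0.14 and 0.21).

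Single-exon copies and pseudogenes share sequence with their parent genes, and how reads that match both were counted is not given, so their values are uncertain. Ndufb4c shares 390 identical bases with Ndufb4, Atp5pb-ps 136 with Atp5pb, and Atp5l-ps1, Atp5l2-ps and Atp5l-ps2 share 171, 106 and 76 with Atp5l. All 5 tested pseudogenes were called lower in CD8 T cells, as were Ndufb4, Atp5pb and Atp5l, and of 3 tested in ILC2s none was called (edgeR). Atp5l-ps1, with a log2 change of -2.07, Atp5l2-ps with -1.56 and Atp5l-ps2 with -1.50 rank among the 10 largest changes of all members in CD8 T cells. A gene on the opposite strand overlaps 32 of the 92 members, among them Sdha, Uqcrh, Ndufs1, Ndufb6, Ndufb1-ps and Ndufs6, and for these reads of the 2 strands cannot be told apart.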

How the data were processed

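RNA was sequenced in 8 bulk libraries made with the SMART-Seq v4 kit, which does not mark strand, from 4 groups of 2. The authors deposited 1 table of raw read counts per gene for each cell type. Per the submitters' processing notes the build was mm10 and the tools were StringTie 2.1.3b, HISAT2 2.1.0, Trimmomatic 0.38 and SAMtools 1.9, listed without roles. The lowest value for any gene in either table is 1, so a gene with no read in a library is not among those analysed. The members and gene lists were chosen with earlier results of these data known.

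Each table was fitted whole with edgeR 4.0.16 (R 4.3.3): filterByExpr, TMM scaling, the quasi-likelihood F test and Benjamini-Hochberg adjustment over all genes tested, with calls at adjusted p under 0.05. The standard error is the log2 change divided by the square root of F. The interaction used all 8 libraries and the genes in both tables. With 2 libraries against 2 an exact permutation test of 1 gene cannot go below p = 0.33, so the calls rest on the spread that edgeR shares across genes. The scripts were tested on simulated counts. CPM are counts per 1000000 counts of a library. Transcript lengths are the median over GENCODE principal transcripts, found for 89 of the 92 members. Positions are RefSeq's for GRCm38.p6, matched for 92, and so are the promoters, at hand for 69 of the 86 subunit genes. Alternatives were DESeq2 1.42.0, limma-voom 3.58.1, other scalings and filters, a replicate block, each library left out and all 8 libraries in 1 fit. Named genes are the 10 largest changes per cell type, the most abundant gene of each complex, core subunits, isoforms, genes with opposite calls, those not called where 5 or fewer, the 3 smallest interaction p-values and up to 3 genes of each list; some genes beyond these were named after their values were seen. The values of 1 gene that this rule names are not reported here.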

Additional observations from a re-analysis of the deposited data

Results flagged for a closer look

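The change after co-culture differed between the cell types, by the edgeR interaction test with adjusted p under 0.05, for 31 of 84 tested subunit genes. Of these 16 were higher and 15 lower, while over all 15532 genes 21.0% were higher and 32.6% lower. The count is no result about these genes as a group. Values are log2 changes in ILC2s minus those in CD8 T cells, both from a joint fit of all 8 libraries with its own scaling. They are therefore not the exact differences of the changes printed from the separate fits. The ILC2 comparison carries the marker differences given in the report. In complex I, Ndufa6 (1.21), Ndufb1-ps (0.82), Ndufb11 (0.54), Ndufv3 (0.44) and Ndufs3 (0.37) stood higher in ILC2s, and Ndufc1 (-0.91), Ndufa10 (-0.66), Ndufs1 (-0.65), Ndufa9 (-0.63), Ndufs8 (-0.61), Ndufb6 (-0.57) and Ndufv1 (-0.40) lower. In complex II, Sdhc (-0.97) and Sdhb (-0.77) were lower. In complex III, Uqcrh (0.96) and Uqcrc2 (0.41) were higher and Uqcr11 (-0.91) lower. In complex IV, Cox6b2 (1.55), Cox7c (0.81), Cox4i1 (0.64), Cox6a1 (0.43) and Cox7a2l (0.36) were higher, and Ndufa4l2 (-3.18) was lower, a value whose CD8 T cell side rests on 3 to 5 reads per library. In complex V, Atp5c1 (0.63), Atp5l (0.62), Atp5g2 (0.55) and Atp5d (0.36) were higher and Atp5g3 (-0.48), Atp5o (-0.47) and Atp5b (-0.40) lower. Cycs was at -0.81. Groups of 2 libraries allow no test for a single library that stands apart.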

How the results depend on the processing

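No change of direction of a called value was found in any alternative tried. In CD8 T cells 76 of 77 called subunit genes kept their call in every alternative, in ILC2s 58 of 67, and of the interactions 14 of 31. In CD8 T cells 74 to 76 genes were lower and 1 higher throughout, and in ILC2s 57 to 66 were lower. With library totals as the scale, the medians in CD8 T cells were -0.150 for complex II, -0.704 for III, -0.824 for V and -1.479 for Cycs. In ILC2s 3 genes were then higher, the median was -0.952, and the complexes I to V were at -0.968, -0.937, -0.972, -0.858 and -0.978 with Cycs at -2.422, and the interaction had 27 lower and 7 higher. In the fit of all 8 libraries the ILC2 median was -0.895, with -0.910, -0.883, -0.916 and -0.920 for I, II, III and V and -2.365 for Cycs. With the pseudogenes counted, an alternative chosen after seeing the data, complex V was at -1.013 in CD8 T cells and -0.622 in ILC2s. Leaving out each library in turn gave, in CD8 T cells, -0.865 to -0.699 for complex III, -1.123 to -0.908 for IV and -1.633 to -1.475 for Cycs. In ILC2s it gave 3 to 5 genes higher (3 without ILC2 alone replicate 2), -0.888 to -0.617 for complex II and -0.834 to -0.630 for IV. The interaction then had 11 to 24 lower (24 without ILC2 co-cultured replicate 2) and 7 to 23 higher: 8 without CD8 alone replicate 1, 10 without CD8 alone replicate 2, 7 without CD8 co-cultured replicate 2, 10 without ILC2 alone replicate 1 and 9 without ILC2 co-cultured replicate 2. A fit that leaves a group with 1 library assumes that it varies like the others. The cause of these moves was not tested.

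Same-numbered libraries did not deviate together (correlation of deviations across genes -0.027 in CD8 T cells and 0.042 in ILC2s). Each group gives only a single difference between its libraries, so this cannot decide whether the numbers pair them, which the labels do not state. With the replicate number as a block, 76 subunit genes were lower and 1 higher in CD8 T cells, with a median of -0.897, 62 were lower and 5 higher in ILC2s, with a median of -0.745, and the interaction had 15 lower and 16 higher, the same counts as without it.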
